A study of Ovis aries with 115 samples.

Results

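PI16 (ENSOARG00000014123), the gene for peptidase inhibitor 16, was followed through the cervix of 114 ewes of 4 breeds. It is 1 of the 27054 annotated sheep genes counted in each RNA-seq library. The gene was chosen by its measured read counts, for a higher level in Fur than in Suffolk among synchronised ewes in the follicular phase, so the values of those ewes are described here and are not tested. Tests were run only on ewes outside that comparison.

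The study describes its synchronised follicular ewes as multiparous, and its methods do not give the parity of the others. The ewes came from 2 countries, Suffolk and Belclare from Ireland, and Fur and Norwegian White Sheep (NWS) from Norway. Breed and country can therefore not be told apart in any comparison of an Irish with a Norwegian breed. Each breed was sampled in 3 states. The natural follicular groups (10 Belclare, 10 Fur, 10 NWS and 8 Suffolk ewes) cycled without hormone treatment. The synchronised follicular groups (10 Belclare, 8 Fur, 10 NWS and 11 Suffolk) had received an intravaginal progestagen sponge followed by equine chorionic gonadotropin. The synchronised luteal groups (10 Belclare, 9 Fur, 8 NWS and 10 Suffolk) are titled as induced. The study's protocol describes the follicular ewes only. Whether the luteal ewes had the same hormones, and when they were sampled after treatment, is not given in the sources used here. Whole cervical tissue was taken after slaughter. In such bulk tissue fewer cells of a type and less RNA per cell cannot be told apart.

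The libraries held 12238996 to 31261671 counted read pairs, with a median of 17835128. The 490 pairs of libraries within a group all differed by more than sampling noise (chi-square per degree of freedom of at least 16.1), so none was treated as a library deposited in duplicate. PI16 was counted in every ewe, from 5 read pairs in Belclare natural follicular replicate 8 to 1771 in NWS natural follicular replicate 10. Levels are given as CPM, read counts relative to the library size after TMM scaling, which corrects for differences in library composition, and never as a level per transcript length. At the low end the counting error was wide. Belclare natural follicular replicate 8 had 0.292 CPM with an exact 95% binomial interval of 0.0948 to 0.682, whereas NWS natural follicular replicate 10 had 100.4 CPM with an interval of 95.8 to 105.2. These intervals cover counting error only, since read pairs without molecular identifiers are not independent molecules.

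PI16 belongs to the CAP superfamily of cysteine-rich secreted proteins and is known as a gene of fibroblasts in the connective tissue around vessels and in other stroma. The protein has been linked to slower activation of the chemoattractant chemerin and to inhibition of the proteases cathepsin K and MMP2. The cervix consists of a mucus-secreting epithelium over a collagen-rich stroma that holds fibroblasts and bundles of smooth muscle, and it remodels through the cycle under oestradiol and progesterone. Both layers were present in these libraries. Each of the 18 epithelial and 6 smooth muscle identifiers that could be tested had counts in every group, and ACTG2, the gamma actin of smooth muscle, ranged from 10.2 CPM in a Suffolk synchronised follicular ewe to 9486 CPM in an NWS natural follicular ewe.

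The 12 groups fell into a high and a low set by country. Ordered by mean log2 CPM, the 6 Norwegian groups took the first 6 places and the 6 Irish groups the last 6. Fur and Suffolk synchronised follicular, in places 3 and 12, chose the gene, so their places are not independent evidence. Of the 11 steps between neighbouring groups in that order, 1 was larger than the SD of both groups. It lay between NWS synchronised follicular (3.81 ± 1.17, SD, n = 10) and Suffolk natural follicular (1.74 ± 1.84, n = 8) and measured 2.08 on the log2 scale. The next largest step was 0.75, between Suffolk synchronised luteal and Suffolk synchronised follicular, and every other pair of neighbours was closer than that.

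In the natural follicular state, PI16 ran from 15.9 to 53.1 CPM in Fur with a median of 22.3. In NWS it ran from 6.05 to 100.4 with a median of 23.8. In Suffolk the median was 2.29 CPM, and the range was 0.482 to 23.0. Replicates 2 and 6 stood at 23.0 and 20.8 CPM, among the Norwegian ewes, while the other 6 Suffolk ewes lay at or below 3.56. Belclare ranged from 0.292 to 16.9 CPM with a median of 2.03, and replicate 2 alone was above 5.05.

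In the synchronised luteal state, Fur ranged from 5.57 to 59.1 CPM with a median of 14.5. NWS ranged from 3.88 to 97.5 with a median of 16.8. Suffolk ranged from 0.584 to 5.22 with a median of 1.601, and Belclare from 0.875 to 13.8 with a median of 1.79. All 9 Fur ewes were above all 10 Suffolk ewes, and 7 of 8 NWS ewes were above all Suffolk ewes.

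In the synchronised follicular state, where the gene was picked, Fur ranged from 5.59 to 86.7 CPM (median 14.9) and Suffolk from 0.534 to 3.38 (median 0.786). NWS ranged from 2.79 to 40.2 CPM (median 16.7). Belclare had a median of 1.31 and a lowest value of 0.421, but replicate 2 reached 82.7 CPM (exact 95% interval 78.6 to 87.0). The next Belclare ewe had 3.74 CPM.

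**Figure D1:**
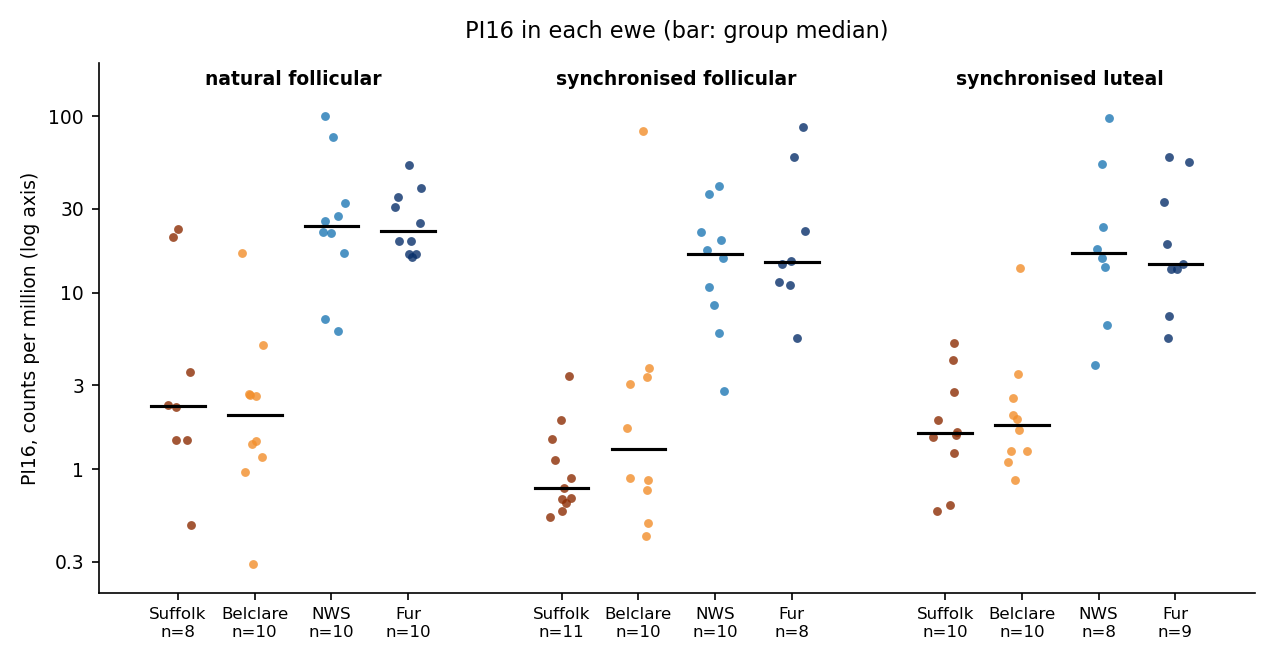
PI16 in CPM on a log axis for each of the 114 ewes, by breed and state, with a bar at the group median. The 6 Norwegian medians lie between 14.5 and 23.8 CPM and the 6 Irish medians between 0.786 and 2.29 CPM, with single high ewes in the Belclare groups and a pair of high ewes in Suffolk natural follicular.

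Over all states, the 55 Norwegian ewes had a median of 19.0 CPM and the 59 Irish ewes of 1.53 CPM. The countries overlapped at their edges. In all, 14 Irish ewes lay above the lowest Norwegian ewe, and 5 Irish against 45 Norwegian ewes exceeded 10 CPM. These medians and counts include the synchronised follicular Fur and Suffolk ewes that chose the gene. In the 75 natural follicular and synchronised luteal ewes, which played no part in the choice of the gene, country took 64.0% of the variance of PI16 log2 CPM. The median of all 15649 genes tested was 6.05%, and 99.9% of genes had a smaller share than PI16. Replacing country by breed raised the share to 64.1%, and replacing it by all 8 combinations of breed and state raised it to 65.6%. These shares are descriptions with no test, and they do not separate breed from country.

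The breed contrasts at the natural follicular phase asked how cervical expression differs between breeds without hormone treatment. PI16 expression was higher in Fur than in Suffolk (27.2 ± 12.3 against 6.92 ± 9.30 CPM, SD, n = 10 and 8), with a log2 fold change of 1.95 (SE 0.61, adjusted p = 0.0325 by edgeR's quasi-likelihood test with Benjamini-Hochberg adjustment). In the same comparison 19.3% of all genes tested passed. All 10 Fur ewes were above the Suffolk median, but only 5 were above every Suffolk ewe. The call rested on few ewes. Leaving out Fur replicate 4 (adjusted p = 0.0524), Fur replicate 10 (0.0542), Suffolk replicate 3 (0.0523) or Suffolk replicate 9 (0.0618) ended it by edgeR's test, while the log2 fold change stayed between 1.77 and 2.53 in all 18 refits. Measured as a difference in mean log2 CPM, which gives less weight to the high Suffolk ewes, Fur exceeded Suffolk by 2.92 (two-sided exact permutation p = 0.000548).

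NWS had 33.6 ± 30.6 CPM (n = 10) and a log2 fold change over Suffolk of 2.26 (SE 0.72), with adjusted p = 0.0972 by edgeR's test, in a comparison in which 0.971% of genes passed. This difference did not pass by edgeR, and it passed by DESeq2 (2.27, adjusted p = 0.0251). Of 18 refits with a single ewe left out, only 1 passed by edgeR. It was the one without Suffolk replicate 6, with a log2 fold change of 2.74 and adjusted p = 0.0338. The highest edgeR adjusted p among the 18 was 0.183. Belclare (3.51 ± 4.88 CPM, n = 10) and Suffolk were not separated, at a log2 fold change of -0.99 with a 95% interval of -2.47 to 0.50 (adjusted p = 0.666 by edgeR, 0.00639% of genes passed). Comparisons with Suffolk share the Suffolk ewes and are not independent of each other.

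Against Belclare, both Norwegian breeds were higher in the natural follicular state. The log2 fold change was 2.94 for Fur (SE 0.52, edgeR adjusted p = 0.000199, 39.3% of genes passed) and 3.25 for NWS (SE 0.63, edgeR adjusted p = 0.00204, 20.7% passed). These are differences of 7.69-fold and 9.51-fold. In each Norwegian breed 7 of 10 ewes were above every Belclare ewe. Without Belclare replicate 2, the highest of its group, the values rose to 3.72 and 4.04. Between the Norwegian breeds, the log2 difference of NWS minus Fur was 0.30 with a 95% interval of -0.50 to 1.10 (edgeR adjusted p = 0.779, 0.0639% passed).

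In synchronised luteal ewes both Norwegian breeds were higher than Suffolk. Fur had 24.5 ± 20.1 CPM (n = 9) against 2.13 ± 1.51 in Suffolk (n = 10), a log2 fold change of 3.49 (SE 0.49, 11.2-fold, edgeR adjusted p = 0.000227), where 29.4% of genes passed. By size PI16 ranked 22 among the genes higher in Fur. NWS had 29.1 ± 31.6 CPM (n = 8) and a log2 fold change of 3.73 over Suffolk (SE 0.57, 13.3-fold, edgeR adjusted p = 0.000942), where 8.45% of genes passed, and it ranked 18. Leaving out each ewe in turn kept both calls, with log2 fold changes of 3.22 to 3.75 for Fur and 3.15 to 3.99 for NWS.

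Belclare again lay close to Suffolk in the luteal phase, at 2.99 ± 3.86 CPM (n = 10), a log2 fold change of 0.45 with a 95% interval of -0.52 to 1.43 (edgeR adjusted p = 0.598, 3.5% of genes passed). Fur was higher than Belclare by 3.06 (SE 0.56, edgeR adjusted p = 0.000429, 38.1% passed) and NWS by 3.28 (SE 0.64, edgeR adjusted p = 0.00222, 24.6% passed) on the log2 scale. Without Belclare replicate 9, the highest of its group, these values were 3.76 and 3.98. NWS and Fur were not separated at the luteal phase either (log2 difference 0.26, 95% interval -0.90 to 1.41, edgeR adjusted p = 0.9, 0.0703% passed).

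For the synchronised follicular state the values of the ewes used in the choice are given without a test. The fitted log2 difference of Fur over Suffolk was 4.61, or 24.4-fold, where 30.8% of genes passed. It was 3.98 for NWS over Suffolk, where 40.5% passed, and 1.52 for Fur over Belclare, where 23.4% passed. The 8 Fur ewes lay above all 11 Suffolk ewes, and 9 of 10 NWS ewes did so too. Belclare over Suffolk came to 3.08, where 0.00639% of genes passed, a value carried by the single Belclare ewe at 82.7 CPM.

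NWS and Belclare at that phase took no part in the choice and were tested. NWS had 17.99 ± 12.4 CPM and Belclare 9.80 ± 25.7 CPM (n = 10 each). With all ewes the log2 fold change was 0.88 (SE 0.85, edgeR adjusted p = 0.433, 35.4% of genes passed). Without Belclare replicate 2 it was 3.40, with edgeR adjusted p = 4.38e-05. All 10 NWS ewes were above the Belclare median, and that same Belclare ewe was above every NWS ewe.

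**Figure D2:**
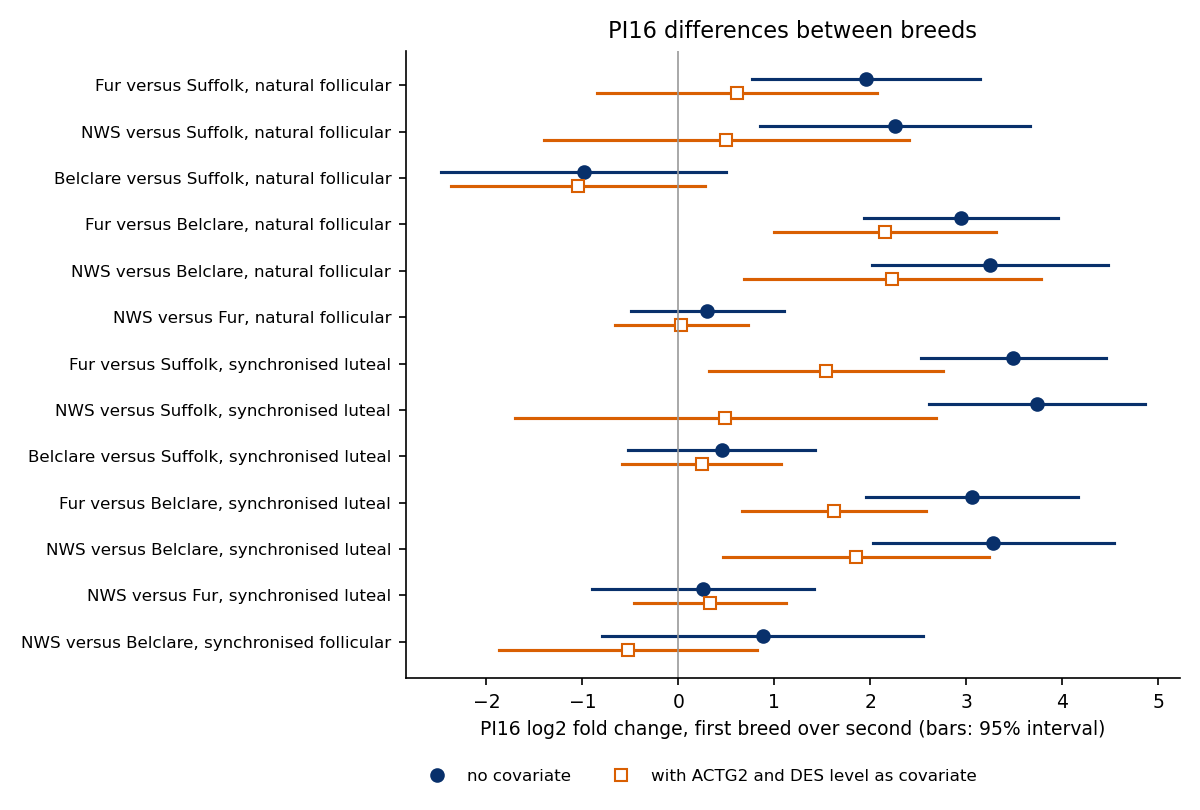
PI16 log2 fold change of the first breed over the second for the 13 tested pairs of breeds, with 95% intervals, from the fit without a covariate (filled circles) and with the ACTG2 and DES level of each ewe as covariate (open squares). Without the covariate the Norwegian breeds exceeded the Irish breeds by 1.95 to 3.73 in the natural follicular and luteal states. With it the differences of the Norwegian breeds from Suffolk lay between 0.49 and 1.54.

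Of the 6 tested differences by phase or type of cycle, 0 passed for PI16 by edgeR's quasi-likelihood test. Of these, 1, luteal against natural follicular Suffolk, had an unadjusted p under 0.05 and passed by DESeq2. Luteal against natural follicular ewes, tested in Fur and in Suffolk, differed in both phase and hormone treatment, which cannot be told apart. In NWS, the luteal minus follicular difference in synchronised ewes was 0.70 on the log2 scale (95% interval -0.38 to 1.79, edgeR adjusted p = 0.321), although 40.8% of genes passed in that comparison. The natural minus synchronised difference at the follicular phase of NWS was 0.88 (95% interval -0.07 to 1.83, edgeR adjusted p = 0.442, 0.0128% passed). In Fur, luteal and natural follicular ewes differed by -0.15 (95% interval -0.92 to 0.62, edgeR adjusted p = 0.789), where 39.4% of genes passed. For the synchronised follicular Fur ewes, which are described only, the luteal difference was -0.20 and the natural difference -0.08.

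In Suffolk, the luteal ewes were lower than the natural follicular ewes by a log2 value of -1.67 (SE 0.65), which did not pass (edgeR adjusted p = 0.0752, 20.4% of genes passed). That difference leaned on the high natural follicular Suffolk ewes. Without replicate 2 it was -1.09 and without replicate 6 it was -1.19, whereas without replicate 3, the lowest ewe, it was -1.85 and passed with edgeR adjusted p = 0.0499.

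In Belclare, the luteal minus synchronised follicular difference was -1.73 (95% interval -3.53 to 0.08, edgeR adjusted p = 0.135, 42.9% of genes passed). The natural minus synchronised difference was -1.49 (95% interval -3.35 to 0.37, edgeR adjusted p = 1). In that last comparison 0% of genes passed by edgeR, 332 had an unadjusted p under 0.05, and DESeq2 called 0. Both signs turned without synchronised follicular replicate 2, to 0.78 (edgeR adjusted p = 0.255) and 1.04 (edgeR adjusted p = 1).

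Whether the breed difference itself changed with the state was tested as an interaction. All but the last interaction given here set luteal against natural follicular ewes, where phase and hormone treatment cannot be told apart. The excess of Fur over Suffolk was larger in synchronised luteal than in natural follicular ewes by 1.54 (SE 0.76). By edgeR its unadjusted p was 0.0501 and its adjusted p 0.290, where 1.51% of genes passed. For NWS over Suffolk the change was 1.45 (SE 0.90, edgeR adjusted p = 0.812, 0.0128% passed). The difference of NWS from Fur changed by -0.04 (SE 0.73, edgeR adjusted p = 0.997). In that interaction 0% of genes passed by edgeR, 449 had an unadjusted p under 0.05 and DESeq2 called 0. The difference of NWS from Belclare was larger at the luteal than at the synchronised follicular phase by 2.43 (SE 1.11, edgeR adjusted p = 0.346, 0.466% passed), but without Belclare replicate 2 the change was -0.07. A change of the breed difference between states was thus not detected for PI16.

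Ewes high in PI16 tended to be high in smooth muscle genes. The measure of smooth muscle was the log2 CPM of ACTG2 averaged with that of DES, the gene for desmin, an intermediate filament protein of muscle. Each ewe's deviation from its group mean in PI16 was set against its deviation in that measure, and Pearson's r was 0.49 and Spearman's rho 0.41 over 114 ewes. Without the 2 ewes of most extreme smooth muscle deviation r was 0.43. The corresponding r and rho of PI16 were 0.21 and 0.23 with the log2 total count, and 0.28 and 0.36 with the number of genes detected. These r values describe libraries that also share depth and composition, and no p is given for them.

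Within single groups r lay between -0.14 in Suffolk synchronised follicular and 0.82 in Fur synchronised luteal, and it was above 0 in the other 11 groups. In each of the 3 Belclare groups the ewe with the highest PI16 also had the highest ACTG2 of its group. The synchronised follicular Belclare replicate 2, at 82.7 CPM PI16, had 5623 CPM ACTG2 and 7903 CPM DES, against a group median of 81.4 CPM ACTG2 and 120.9 CPM DES. Natural follicular Belclare replicate 2 had 2725 CPM ACTG2 and luteal Belclare replicate 9 had 617.8 CPM.

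Other ewes departed from this pattern. Suffolk natural follicular replicate 7 had the most ACTG2 of its group, 1870 CPM, with 4138 CPM DES, yet its PI16 was 2.26 CPM. NWS natural follicular replicate 5 had 9486 CPM ACTG2, the highest of all ewes, and 21.7 CPM PI16, below the median of its group. Suffolk natural follicular replicate 2, with 23.0 CPM PI16 the highest Suffolk ewe, had 524.5 CPM ACTG2 and 317.4 CPM DES.

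**Figure D3:**
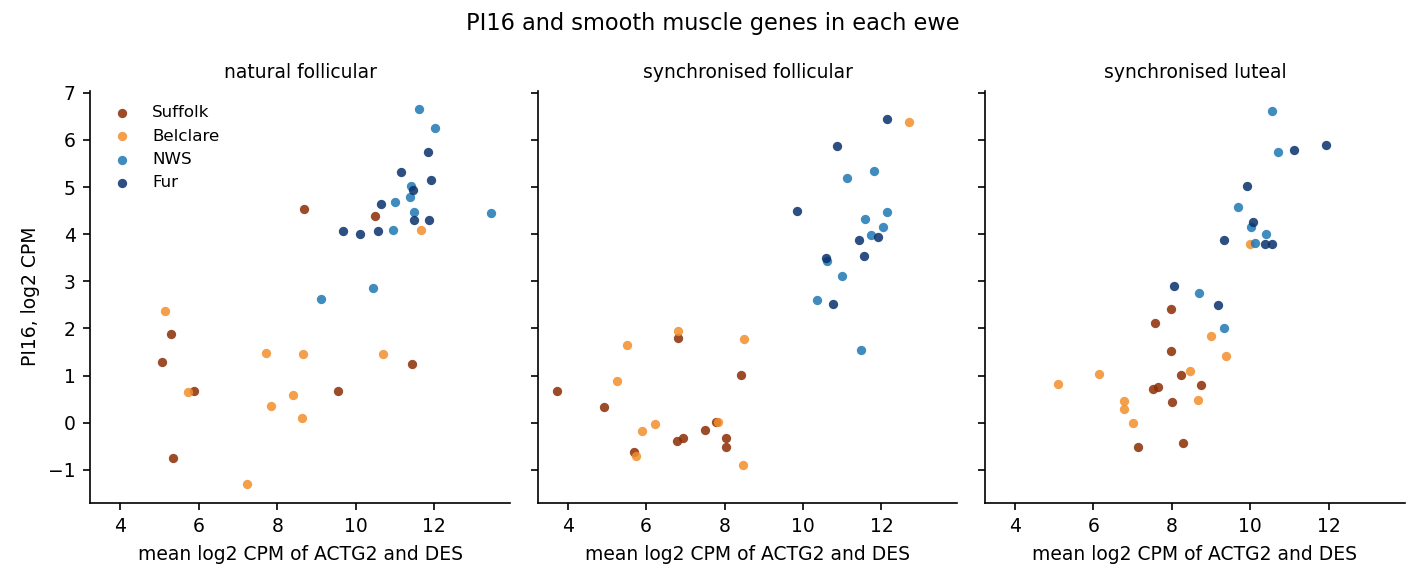
PI16 (log2 CPM) in each ewe against the average of its ACTG2 and DES levels (log2 CPM), by state and breed. Norwegian ewes lie at the upper right in every state, and the single Belclare ewe at the upper right of the synchronised follicular panel had 82.7 CPM PI16.

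Smooth muscle genes also differed between the breeds. Summed over the 6 identifiers of that list that could be tested, the level ran from 1664 to 7835 CPM in natural follicular Fur, from 1298 to 23074 in NWS, from 70.6 to 6065 in Suffolk and from 72.9 to 6617 in Belclare. At the luteal phase it ran from 589.1 to 9421 CPM in Fur, from 948.4 to 3919 in NWS, from 322.5 to 982.7 in Suffolk and from 81.2 to 2310 in Belclare. In Fur over Suffolk, 6 of 6 rose at the luteal phase and 1 of 6, ASB2, a substrate receptor of a ubiquitin ligase in muscle, rose at the natural follicular phase, where 14.1% and 7.74% of all genes rose. In NWS over Suffolk, 5 of 6 rose at the luteal phase, where 5.04% of all genes did. At the natural follicular phase of NWS, where 0.505% of all genes rose, 0 of 6 passed by edgeR, while 6 were higher at an unadjusted p under 0.05 and 4 by DESeq2. All 6 were named by the study for their lower level in synchronised follicular Suffolk ewes, so their direction is not independent evidence, and of the 14 genes listed the other 8, MYH11 and ACTA2 among them, could not be matched to a name. Their part in the PI16 result was not tested, and in the fit that follows it cannot be told apart from breed.

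When the ACTG2 and DES measure was added to the fit as a covariate, the PI16 differences from Suffolk shrank. The measure itself followed breed, so this fit cannot tell smooth muscle from breed. In luteal ewes ACTG2 ran from 257.7 to 953.4 CPM in NWS, from 178.9 to 2204 in Fur and from 86.0 to 258.0 in Suffolk. For Fur over Suffolk the log2 fold change became 0.61 (SE 0.74, edgeR adjusted p = 0.684) at the natural follicular and 1.54 (SE 0.62, edgeR adjusted p = 0.0944) at the luteal phase. For NWS over Suffolk at the luteal phase it became 0.49, and the SE rose from 0.57 to 1.12 (edgeR adjusted p = 0.869). For NWS over Belclare it became 2.23 (edgeR adjusted p = 0.218) and 1.85 (edgeR adjusted p = 0.195) at the natural follicular and luteal phases. The difference of Fur from Belclare also shrank, from 2.94 to 2.15 (edgeR adjusted p = 0.0135) and from 3.06 to 1.62 (edgeR adjusted p = 0.0285), and still passed. The covariate removed calls for genes in general: in Fur over Suffolk at the natural follicular phase 34 genes passed with it and 3013 without it. In synchronised NWS ewes the luteal minus follicular difference of PI16 grew with the covariate to 2.35 (SE 0.65, edgeR adjusted p = 0.0467).

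The genes most like PI16 among those with a name were looked for over the same 114 deviations from group means. Of 15648 other genes tested, 1349 had a name, and nearly all of those names came from the study's list of genes higher in synchronised follicular Suffolk than in Fur, so the named genes are not a fair sample. The highest r was that of PNCK (0.61), a calcium and calmodulin dependent kinase. ASB2 (0.59), POPDC2, a cAMP-binding membrane protein of muscle (0.53), and PCP4, a calmodulin-binding peptide (0.51), followed. Then came DES (0.49), ACTG2 (0.47), A2M, the plasma protease inhibitor alpha-2-macroglobulin (0.46), and BRINP3 (0.46). Of all genes, 251 exceeded 0.5, 4 of them named, while the median gene had -0.02.

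The 2 identifiers most like PI16 had no name. ENSOARG00000012184 had an r of 0.77 and ENSOARG00000014704 of 0.72. In luteal ewes ENSOARG00000012184 averaged 2.20 ± 1.31 CPM in Suffolk but 26.7 ± 21.0 CPM in Fur (log2 fold change 3.58, edgeR adjusted p = 9.73e-05). At the natural follicular phase its log2 fold change was 0.94 and did not pass (edgeR adjusted p = 0.207). For PI16 the corresponding values were 3.49 and 1.95.

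Over the 12 group means the named genes closest to PI16 were PNCK (0.98), POPDC2 (0.97), PCP4 (0.97), DES (0.95), ASB2 (0.94) and ACTG2 (0.94), again as a description of 12 points. The 12 include synchronised follicular Fur and Suffolk, which chose PI16. These genes were named for a lower level in synchronised follicular Suffolk ewes, so their place is not independent evidence. Of all genes 499 exceeded 0.9, 6 of them named, and PNCK ranked 21. In luteal ewes PNCK stood at 5.10 ± 4.98 CPM in Fur and 0.320 ± 0.223 in Suffolk, a log2 fold change of 3.92 (SE 0.63, edgeR adjusted p = 0.000433). PCP4 had 23.0 ± 13.6 and 0.959 ± 0.931 CPM (log2 fold change 4.54, SE 0.60, edgeR adjusted p = 0.00013). A2M had 135.2 ± 173.1 and 4.89 ± 3.03 CPM (log2 fold change 4.76, SE 0.62). At the natural follicular phase PNCK was higher in Fur by 2.40 (edgeR adjusted p = 0.0428), whereas PCP4 at 2.32 (edgeR adjusted p = 0.0571) and A2M at 1.09 (edgeR adjusted p = 0.126) did not pass.

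Among the named genes the lowest r values belonged to genes of epithelia. CLDN7, a tight junction claudin, had -0.58, LSR, a receptor of tricellular junctions, -0.55, LLGL2, a polarity protein, -0.55, and SPINT2, an inhibitor of serine proteases, -0.54. The epithelium list as a whole had a median r of -0.40 over 18 identifiers, 1 of them above 0. Its summed level ran from 1867 to 3298 CPM in natural follicular Fur and from 2087 to 8172 in Suffolk, and from 727.1 to 3014 in luteal Fur and from 2227 to 4320 in luteal Suffolk. In Fur against Suffolk 11 of 18 were lower at each of the natural follicular and luteal phases, where 11.5% and 15.3% of all genes were lower, with list medians of -0.59 and -0.66 beside -0.02 for all genes. In NWS against Suffolk 2 of 18 were lower at the natural follicular and 3 of 18 at the luteal phase. In those comparisons 0.466% and 3.41% of all genes were lower. In natural follicular Fur against Suffolk, OVOL2, an epithelial transcription factor, differed by a log2 value of -1.16 and the mucin MUC5AC by -1.36. In natural follicular NWS against Suffolk they differed by -0.61 and -0.51, and neither passed by edgeR. The names again came from genes found higher in Suffolk, and the part of epithelium in the PI16 result was not tested.

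Genes of fibroblasts and matrix, the class PI16 is known for, showed a weaker likeness to it than those of smooth muscle. The 33 identifiers had a median r of 0.15, with 25 above 0 and a highest value of 0.45, against 0.50 for the 6 smooth muscle identifiers. The median of all named genes was -0.11. The smooth muscle identifiers were named for a lower level in Suffolk, as PI16 was, and nearly all of the 33 for a higher one. The list medians are therefore not a fair comparison. In Fur against Suffolk 14 of 33 were lower at the natural follicular and 15 of 33 at the luteal phase, where 11.5% and 15.3% of all genes were lower, with medians of -0.65 and -0.55. In NWS against Suffolk 6 of 33 were lower at the luteal phase, where 3.41% of all genes were. At the natural follicular phase of NWS 0 of 33 passed by edgeR, where 0.466% of all genes were lower, while 11 were lower at an unadjusted p under 0.05 and 5 by DESeq2. Nearly all of these identifiers were named by the study as higher in Suffolk, so their direction is not independent evidence. THBS2, a matricellular thrombospondin, was lower in natural follicular Fur at all 3 of its identifiers (-1.50, -1.59 and -1.30). Summed over all 33 identifiers of the list, the level ran from 3930 to 6984 CPM in natural follicular Fur and from 3580 to 12646 in Suffolk. At the luteal phase it ran from 2098 to 4305 CPM in Fur and from 3718 to 7293 in Suffolk. The stromal markers among the 46 genes listed that carried no name could not be used, so the label of PI16 as a fibroblast gene could not be checked further in these libraries.

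**Figure D4:**
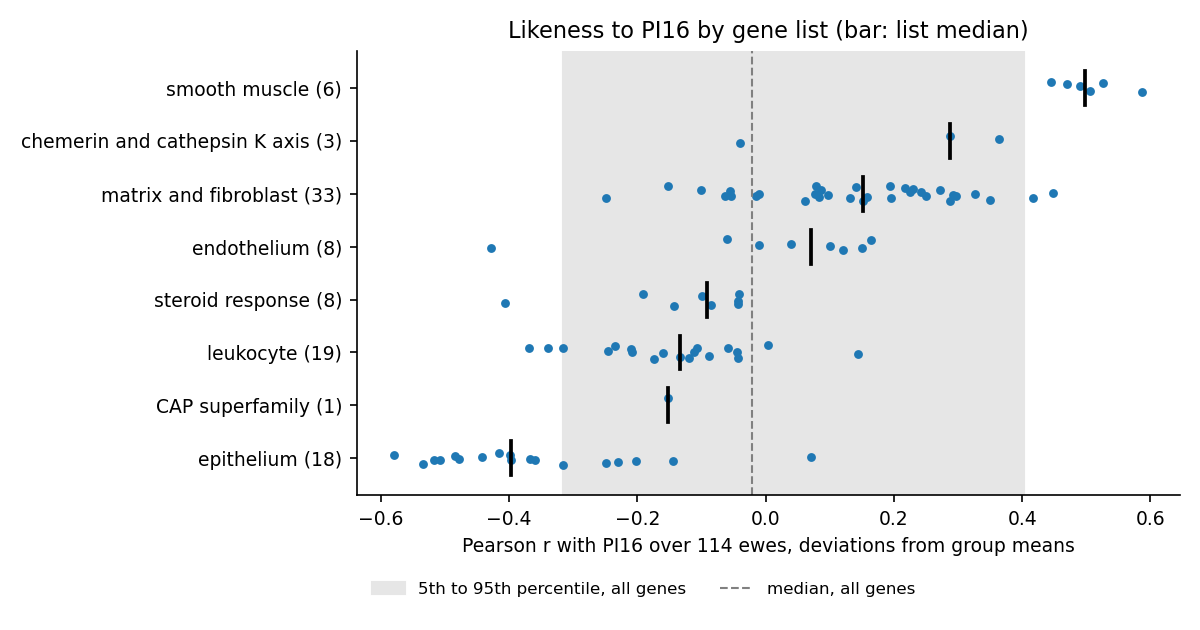
Pearson r with PI16 over 114 ewes, from deviations from group means, for each identifier of 8 gene lists (number of identifiers in brackets), with a bar at the list median, the middle 90% of all genes shaded and their median dashed. Smooth muscle identifiers lie highest (median 0.50) and epithelial identifiers lowest (median -0.40).

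Of 6 genes listed for chemerin and cathepsin K, 3 could be tested, and in Fur and NWS against Suffolk at the natural follicular and luteal phases their edgeR adjusted p lay between 0.0570 and 0.944. CTSK, the gene for cathepsin K, had 143.4 ± 35.1 CPM in natural follicular Fur and 137.5 ± 34.0 in Suffolk (log2 difference 0.05), and its r with PI16 within groups was 0.36. MMP2, a gelatinase, had 546.7 ± 143.8 and 576.8 ± 240.5 CPM (log2 difference -0.09) and an r of 0.29. CCRL2, a chemerin-binding receptor, had 12.96 ± 3.27 and 14.4 ± 7.93 CPM (log2 difference -0.17) and an r of -0.04. In luteal Fur against Suffolk, MMP2 differed by -0.64 and CCRL2 by -0.52, both with an unadjusted p under 0.05 and called by DESeq2 but not by edgeR, and CTSK by 0.31. Chemerin itself, RARRES2, had no matched identifier.

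Of the CAP superfamily list 1 of 9 genes could be tested, CRISPLD2, a secreted matrix protein of the same family. CRISPLD2 had 111.2 ± 51.2 CPM in natural follicular Fur and 289.6 ± 223.1 in Suffolk, a log2 difference of -1.39 (SE 0.37, edgeR adjusted p = 0.0159). In luteal ewes the difference was -0.92 (SE 0.28, edgeR adjusted p = 0.0209) for Fur and -1.02 (SE 0.31, edgeR adjusted p = 0.0493) for NWS. Its r with PI16 within groups was -0.15.

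The remaining lists showed medians near that of all genes. The 19 leukocyte identifiers had a median r of -0.13, the 8 of endothelium 0.07 and the 8 of steroid response -0.09. In luteal Fur against Suffolk 13 of 19 leukocyte identifiers were lower, where 15.3% of all genes were, among them FLT3, a receptor of dendritic cell precursors, by a log2 value of -2.73. At the natural follicular phase of Fur 2 of 19 were lower, a share near the 11.5% of all genes that were lower. They were FLT3 (-2.15) and the water channel AQP9 (-1.72). CD177, a neutrophil surface protein, was higher (2.43), where 7.74% of all genes were. In NWS against Suffolk 4 of 19 were lower at the luteal phase, where 3.41% of all genes were. At the natural follicular phase of NWS 0.466% of all genes were lower. There 0 of 19 leukocyte identifiers passed by edgeR, 3 were lower at an unadjusted p under 0.05 and 2 by DESeq2. In natural follicular Fur, where 11.5% of all genes were lower, 2 of the 8 identifiers of the steroid response list were lower. They were OXTR, the oxytocin receptor, at 6.54 ± 7.50 CPM in Fur and 81.6 ± 98.2 CPM in Suffolk, and PGRMC1, a membrane component linked to progesterone binding (-0.53). Of the 8 endothelium identifiers 2 were lower in natural follicular Fur, where 11.5% of all genes were, SOX17 (-0.85) and NOTCH4 (-0.52). In luteal Fur 3 of 8 were lower, where 15.3% of all genes were, and SOX17 was not among them (-0.23, edgeR adjusted p = 0.463). In NWS against Suffolk 0 of 8 were lower at the natural follicular and 2 of 8 at the luteal phase. In those comparisons 0.466% and 3.41% of all genes were lower. The names of these lists, too, came mostly from genes found higher in Suffolk.

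In the RefSeq annotation of a later sheep assembly (ARS-UI_Ramb_v3.0), CPNE5 and MTCH1 are near neighbours of PI16, and both had an identifier here. The identifiers were matched by name only, and their place beside PI16 in Oar_v3.1 was not checked. Both genes were added after values had been seen. CPNE5 had an r with PI16 within groups of 0.26 and MTCH1 of 0.05. In luteal Fur against Suffolk, where PI16 was higher by 3.49, CPNE5 differed by -0.54 (edgeR adjusted p = 0.384) and MTCH1 by -0.21 (edgeR adjusted p = 0.775). Both levels were low there. CPNE5 had 1.85 ± 1.01 CPM in Fur and 2.66 ± 2.76 in Suffolk, and MTCH1 2.69 ± 1.07 and 3.05 ± 3.03. Such low levels limit what these differences show.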

How the data were processed

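Per the labels and the study's methods, cervical RNA was sequenced in pairs from a strand-marking kit, and the authors trimmed reads with BBDuk, aligned unique pairs to Oar_v3.1 with STAR 2.6.1b and counted them per Ensembl gene with featureCounts (Subread 1.6.3). The strand setting is not given in the sources used here. The deposited values are raw counts per gene, 1 file per ewe. From them, genes with at least 1 CPM in at least 10 of 114 libraries were kept (15649, of which 1350 had a name from the study's supplement). Each pair of groups was fitted alone with edgeR 4.0.16 (TMM scaling, quasi-likelihood F test, Benjamini-Hochberg adjustment over all genes, threshold 0.05). SEs are the log2 fold change over the root of F, and 95% intervals are normal. Log2 CPM used a prior count of 2. Scripts were tested on simulated data. Alternatives used DESeq2 1.42.0, other scaling and filters, permutation, covariates and left-out ewes.

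Named were PI16, the named and unnamed genes most and least like it, the 2 most changed members per list and 6 fixed genes. PI16 and the lists were chosen with earlier results of these data known. The authors' tables of fold changes were used for names only. One library, whose labels give conflicting states, was left out of every comparison.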

Additional observations from a re-analysis of the deposited data

Results flagged for a closer look

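Among the 11 groups of 8 to 10 ewes, 3 held an ewe whose PI16 level stood apart from the rest of its group by Dixon's gap test, and all were Belclare. Replicate 2 of the natural follicular ewes had 16.9 CPM, replicate 2 of the synchronised follicular ewes 82.7 CPM and replicate 9 of the synchronised luteal ewes 13.8 CPM. Chance flags about 1 in 20 groups, and the test was run on CPM, whose upper tail is long in every group. These ewes also had the highest ACTG2 of their groups, 2725, 5623 and 617.8 CPM, and the part of smooth muscle in their PI16 level was not tested. The shared replicate number of the natural and the synchronised follicular ewe names ewes within a group, and whether it also marks a shared batch was not tested.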

How the results depend on the processing

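Median-of-ratios scaling and dropping the filter on low counts changed no call and no direction of PI16 in any of the 23 tests, and a prior count of 0.5 and Spearman's rho kept the likeness to smooth muscle.
DESeq2 passed NWS over Suffolk at the natural follicular phase (2.27) and luteal against natural follicular Suffolk (-1.69), and turned the Belclare phase (0.068) and cycle (0.22) differences.
A fit of all 12 groups passed NWS over Suffolk at the natural follicular phase (2.28) and luteal against follicular Belclare (-1.75).
Permutation of mean log2 CPM passed NWS over Suffolk at the natural follicular phase (2.85, exact p = 0.00176) and NWS over Belclare in synchronised follicular ewes (2.73, permutation p = 0.00341), and turned NWS minus Fur at the natural follicular phase (-0.066) and the Belclare phase (0.039) and cycle (0.041) differences.
The smooth muscle covariate ended the calls of Fur over Suffolk (0.61 natural follicular, 1.54 luteal), NWS over Suffolk (0.49 luteal) and NWS over Belclare (2.23 and 1.85), passed luteal against follicular NWS (2.35), and turned NWS over Belclare in synchronised follicular ewes (-0.52), luteal against natural follicular Fur (0.36) and the interaction of NWS with Fur (0.40).
The causes of these changes were not tested.

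Leaving out single ewes gave 1.77 to 2.53 for Fur over Suffolk at the natural follicular phase, 1.89 to 2.84 for NWS over Suffolk, 3.22 to 3.75 and 3.15 to 3.99 for the same breeds at the luteal phase, and -1.94 to -1.09 for luteal against natural follicular Suffolk.
Without the highest Belclare ewe, chosen after seeing the data, NWS over Belclare in synchronised follicular ewes was 3.40, the Belclare phase difference 0.78, the cycle difference 1.04 and the interaction -0.073, while Fur and NWS over Belclare were 3.72 and 4.04 (natural follicular) and 3.76 and 3.98 (luteal).

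Replicate numbers recur across groups, and the ewes were not treated as paired. In none of 19 pairs of groups did every same-numbered pair correlate above 0.1, and the median correlation lay between -0.19 and 0.15. Above 0.1 were 5 of 9 pairs of luteal Fur and Suffolk. Of natural and synchronised follicular Belclare 5 of 10 were, with a highest value of 0.55. Whether some numbers share a batch was not tested.
With the replicate block NWS over Belclare in synchronised follicular ewes passed (2.78), and NWS minus Fur (-0.023 natural follicular, -0.13 luteal), the Belclare cycle difference (0.036) and the interaction of NWS with Fur (0.25) turned sign, none of them past the threshold. The block also gave 2.84 for Fur over Suffolk at the natural follicular phase and -0.91 for luteal against natural follicular Suffolk, where the permutation difference was -0.86.
The block changed the genes called in Fur over Suffolk from 3013 to 1607 at the natural follicular and from 4606 to 5139 at the luteal phase.
Low PI16 counts in Irish ewes, down to 5 read pairs, limit the precision of their levels.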

Other observations

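The library left out of the comparisons is titled as a natural follicular Suffolk ewe, while its other labels give a synchronised luteal state. It held 89 PI16 read pairs of 15387419, or 5.78 CPM of its own total, with 268.7 CPM ACTG2 and 707.3 CPM DES.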
